A study of Homo sapiens with 6 samples.

Results

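The N6-methyladenosine (m6A) genes described here are 10 genes that write, remove or read this methyl mark on RNA, measured in HCT116 cells. HCT116 is a human colorectal cancer cell line. The genes were METTL3, METTL14, WTAP, KIAA1429, RBM15 and ZC3H13 (writers), FTO (an eraser) and IGF2BP1, IGF2BP2 and IGF2BP3 (readers). They were chosen by name, as the transcripts whose gene symbol in the deposited mRNA table is one of these 10. The 10 genes hold 50 of the 92866 listed transcripts and are 10 of 19871 symbols. The study sequenced RNA of cells given exogenous GAS5, a long non-coding RNA, or a siRNA against YAP, the transcriptional coactivator of the Hippo pathway, beside a negative control (NC). Each of the 3 groups had 2 libraries, 6 in all. The treatment text names a GAS5 plasmid for the GAS5 group, whereas the sample characteristics list GAS5 under siRNA, and what the NC cells received is not stated. Which of the study's siRNAs against YAP1 went into these libraries, and when RNA was collected, are not given in the sources used here. All libraries came from this 1 cell line, and whether the libraries of a group were separate cultures is not stated.

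m6A is placed on messenger RNA in the nucleus by a complex whose catalytic subunit is METTL3. METTL14 holds the RNA beside METTL3, WTAP anchors the pair, and KIAA1429, RBM15 and ZC3H13 are further subunits that guide the complex to RNA or keep it in the nucleus. FTO removes methyl groups from RNA, and the IGF2BP proteins bind m6A-containing messages and are known for stabilising them, MYC among them. IGF2BP1 and IGF2BP3 are known as oncofetal proteins, silent in most adult tissue, whereas IGF2BP2 is widely expressed in adults.

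The deposited tables give estimated read counts and FPKM (fragment numbers scaled by transcript length and by library size) as 1 mean per group. No library has a value of its own here, so no SD, test or p-value could be given, and the spread between libraries is unknown for every value in the text. Log2 fold changes are ratios of mean counts after TMM scaling of each pair of groups with a prior count of 2. Their intervals are 95% Wilson intervals on the counts behind a mean of 2 libraries, which is counting error and no more. A fold change of at least 2 stands in for a call. Total mean counts lay between 25521577 and 27206123. YAP1 had 3480.0 mean counts in NC, against 2679.0 in GAS5 and 1444.0 in siYAP, a log2 fold change of -0.26 in GAS5 and -1.18 in siYAP, and GAS5 itself is not analysed here. The YAP target genes CTGF and CYR61 were not below NC, with log2 fold changes of 0.72 and 1.09 in GAS5 and of 0.16 (-0.15 to 0.48) and 0.29 (0.17 to 0.41) in siYAP. Epithelial markers EPCAM, CDH1, KRT8, KRT18 and KRT19 had between 2723.0 and 84416.5 mean counts in every group, whereas VIL1 had at most 6.0. A list of 8 markers of other cells had a summed count of 600.5 in NC, 852.0 with GAS5 and 756.0 with siYAP, most of it COL1A1 and CD68, with the leukocyte marker PTPRC at 0 in all groups.

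Sequence differences between isoforms set apart the protein forms of IGF2BP2 and WTAP whose shares are given further on, so these are shown first. In IGF2BP2, an alternative coding exon of 129 bases (chr3:185672541-185672669, minus strand, GRCh38, GENCODE 29) is either kept or skipped. Capitals mark this exon and lower case the 15 bases of the neighbouring exons on each side.
IGF2BP2 alternative exon: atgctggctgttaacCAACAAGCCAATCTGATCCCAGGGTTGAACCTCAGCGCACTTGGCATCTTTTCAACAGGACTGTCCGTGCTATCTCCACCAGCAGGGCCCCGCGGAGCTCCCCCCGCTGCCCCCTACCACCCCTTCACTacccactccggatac
IGF2BP2 junction without the exon: atgctggctgttaacacccactccggatac
In WTAP, a short and a long reading frame share their first 452 coding bases and then part. Capitals mark the first 15 bases after the point where they part, and the short frame there reads into the stop codon TAA.
WTAP short form: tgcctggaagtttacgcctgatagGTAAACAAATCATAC
WTAP long form: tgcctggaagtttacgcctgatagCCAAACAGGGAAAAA

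Per length, IGF2BP2 was the highest of the 10 genes in every group and IGF2BP1 the lowest. Summed FPKM of IGF2BP2 was 61.2 in NC, against 50.4 in GAS5 and 51.8 in siYAP. WTAP came next in NC and GAS5, with 33.8 and 37.5, and FTO next in siYAP, with 36.4. FTO in NC and GAS5 (32.5 and 29.7) and WTAP in siYAP (24.8) stood in the third place. KIAA1429 and its current symbol VIRMA, joined as 1 gene for the reason given below, followed with 24.7, 25.0 and 19.1. IGF2BP3 and RBM15 exchanged places between groups, at 18.6 and 16.6 in NC and at 16.0 and 19.0 in GAS5. METTL3, ZC3H13 and METTL14 kept the next places in each group. These sums include transcripts with short or incomplete reading frames. In NC the long frame held 40.3% of the WTAP FPKM, or 13.6. FTO frames of at least 400 codons held 39.2% of the FTO FPKM, or 12.7, and the METTL3 sum was 13.4. Without a spread between libraries, the order of close neighbours such as WTAP and FTO in NC has no error attached. The catalytic subunit METTL3 was listed above its partner METTL14 in each group, with a METTL3 to METTL14 FPKM ratio of 1.77 in NC, 2.28 with GAS5 and 1.41 with siYAP.

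**Figure D1:**
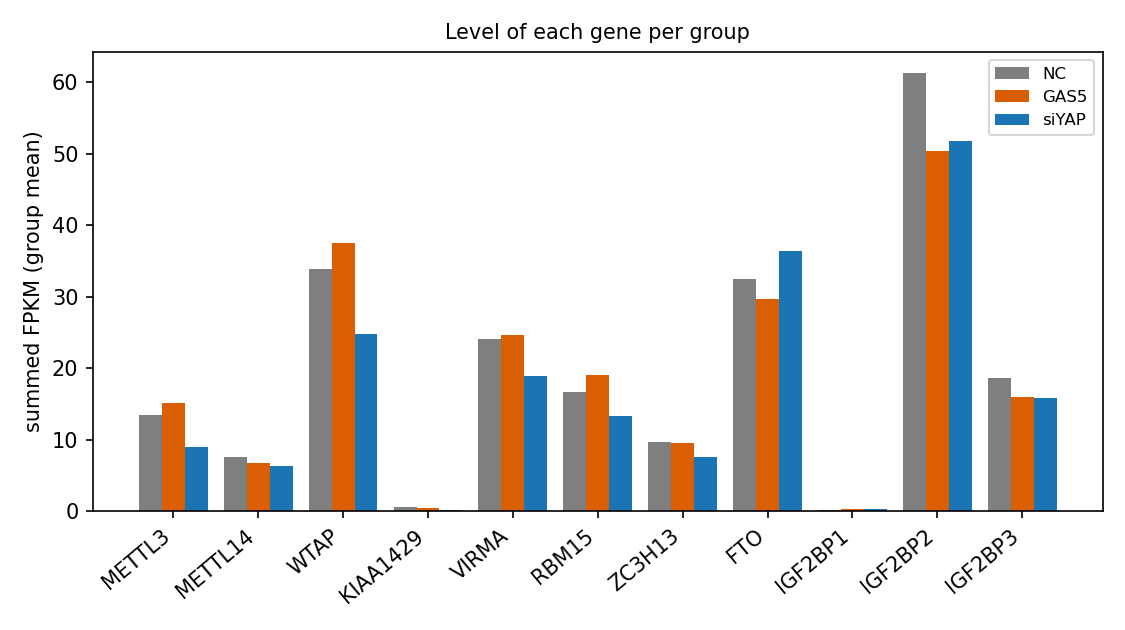
Bars give the summed FPKM of each gene (y axis, linear from 0, the authors' group mean) in NC (grey), GAS5 (orange) and siYAP (blue), with no error bars because the tables hold 1 mean per group. IGF2BP2 stands at 50.4 or more in all groups, IGF2BP1 and the rows named KIAA1429 are close to 0, and VIRMA is drawn beside KIAA1429.

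The first comparison asks what the 6 writer genes did when GAS5 was added or YAP was knocked down. In siYAP all 6 had a log2 fold change below 0, between -1.35 and -0.17, with a median of -0.36. Of all kept genes in siYAP, 7.39% had a lower value than METTL3, 11.4% than WTAP and 17.0% than ZC3H13. The share was 19.4% for RBM15 and 30.5% for METTL14, so most of these shifts were moderate beside other genes. In GAS5, METTL3, WTAP and RBM15 were above NC at 0.18 to 0.23, METTL14 and KIAA1429 were below, and ZC3H13 was near 0 at -0.02. Over all 10 genes, 9 were below 0 in siYAP, where 50% of the 13308 genes kept were below 0, and 7 were below 0 in GAS5, where 49.8% of 13379 genes were. All 10 genes passed the filter on low counts in both comparisons. Their median was -0.25 in siYAP and -0.11 in GAS5, and the median of all genes was within 0.01 of 0 in both. With KIAA1429 and VIRMA joined as 1 gene, 6 of the 10 were below 0 in GAS5, with a median of -0.05, and 9 in siYAP, with a median of -0.25. Both comparisons use the same NC mean, so an error in it enters both. In bulk RNA, fewer cells that express a gene and less of its RNA per cell cannot be told apart.

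The GAS5 group also differed from NC in a list of 12 interferon-stimulated genes. That they differ in this group was known from an earlier analysis, so their count is a description and not a new finding. All 12 were higher by a fold of at least 2, with a median log2 fold change of 2.74. Of all genes, 3.09% were at that fold in either direction. The summed mean count of the 12 genes was 10237.5 in NC, 46526.0 with GAS5 and 8762.0 with siYAP. In siYAP the median was -0.14 over the 11 genes kept. The part of this response in the GAS5 values of the m6A genes was not tested.

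METTL3, which transfers the methyl group, lies on chromosome 14 from 21498133 to 21511375, minus strand. Mean counts were 741.5 in NC, against 799.0 in GAS5 and 487.5 in siYAP, so siYAP was the low group and GAS5 the high one. The log2 fold change was -0.52 in siYAP (interval -0.64 to -0.40) and 0.23 in GAS5 (0.12 to 0.33). In siYAP 7.39% of kept genes had a lower value than METTL3, and in GAS5 79.6% did. Set directly against siYAP, GAS5 was higher by 0.73 (0.62 to 0.85), and 94.5% of genes had a lower value. Nearly all of this count, 99.6% in NC, was in the full-length transcript METTL3-201 (ENST00000298717) of 580 codons. METTL3 shares 388 exonic bases with TOX4 on the other strand, whose log2 fold change was 0.09 in GAS5 and -0.16 in siYAP. The libraries kept strand, but whether the counting used it is not stated, so reads of such overlaps cannot be told apart.

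METTL14, the RNA-holding partner of METTL3 (chromosome 4, 118685368 to 118715433, plus strand), had 1002.0 mean counts in NC and 839.5 in each treatment group. The log2 fold change of METTL14 was -0.14 in GAS5 (-0.23 to -0.04) and -0.17 in siYAP (-0.26 to -0.08), and the treatments differed by 0.02 (-0.08 to 0.12). The METTL14 values of the treatments were thus close together, while those of METTL3 had opposite signs. Most of its count, 568.5 in NC, 471.4 with GAS5 and 424.5 with siYAP, belonged to TCONS_00108119, a transcript assembled from the reads. The annotated full-length METTL14-201 (ENST00000388822) had 378.9, 304.7 and 341.3. A smaller assembled METTL14 transcript, TCONS_00108118, named after its values were seen, went against the gene sum, with 30.6, 46.4 and 57.4. Its log2 fold change was 0.67 in GAS5 (0.25 to 1.18) and 0.98 in siYAP (0.58 to 1.48).

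WTAP, the subunit that anchors METTL3 and METTL14 in nuclear speckles (chromosome 6, 159725585 to 159756319, plus strand), had 1706.5 mean counts in NC, against 1782.5 in GAS5 and 1210.0 in siYAP. On the log2 scale WTAP differed from NC by 0.18 in GAS5 (0.11 to 0.25) and -0.41 in siYAP (-0.49 to -0.34). GAS5 stood above siYAP by 0.58 (0.50 to 0.65). As with METTL3, siYAP was lowest. SOD2, which shares 437 exonic bases with WTAP on the other strand, had log2 fold changes of -0.07 in GAS5 and -0.37 in siYAP. The part of the overlap in the WTAP value was not tested.

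RBM15, an RNA-binding subunit of the complex (chromosome 1, 110338506 to 110346681, plus strand), had 1549.0 mean counts in NC, 1665.5 with GAS5 and 1196.0 with siYAP. RBM15 had a log2 fold change of 0.22 in GAS5 (0.15 to 0.29) and -0.29 in siYAP (-0.36 to -0.21). ZC3H13, a zinc finger subunit that holds the complex in the nucleus (chromosome 13, 45954465 to 46052759, minus strand), had 1610.0, 1463.0 and 1215.5. For ZC3H13 the log2 fold change was -0.02 in GAS5 (-0.09 to 0.05) and -0.32 in siYAP (-0.40 to -0.24). Both genes were therefore lowest in siYAP, and only RBM15 of the pair had a GAS5 interval clear of 0.

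KIAA1429, the large scaffold subunit also named VIRMA, was the 1 member of the 10 at a fold change of at least 2, and in siYAP alone. Across all genes, 2.26% were at that fold in siYAP in either direction and 1.21% were lower by it. In GAS5 none of the 10 was, against 3.09% of all genes. The KIAA1429 symbol holds 1 transcript, TCONS_00137943, assembled from the reads, with 119.0 mean counts in NC, against 79.9 in GAS5 and 42.7 in siYAP. For this transcript the log2 fold change was -0.45 in GAS5 (-0.74 to -0.17) and -1.35 in siYAP (-1.76 to -1.04).

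The same gene (chromosome 8, 94487693 to 94553529, minus strand) is listed a second time under VIRMA, with annotated transcripts only. VIRMA-201 (ENST00000297591) had 3279.8 mean counts in NC, 3078.9 with GAS5 and 2571.8 with siYAP, and VIRMA-202 (ENST00000421249) had 654.2, 661.7 and 440.0. The KIAA1429 rows thus held 2.94% of the joined count in NC, against 2.09% in GAS5 and 1.4% in siYAP. Joined, the gene had 4053.0, 3820.5 and 3054.5 mean counts. Its log2 fold change was then 0.03 in GAS5 (-0.01 to 0.08) and -0.32 in siYAP (-0.37 to -0.27), and no member was left at a fold change of 2. Joining was chosen after the values were seen. With the joined gene all 6 writers were still below 0 in siYAP, between -0.52 and -0.17 with a median of -0.32. Set against siYAP, the writers had log2 values in GAS5 from 0.02 to 0.73, with a median of 0.42, where 49.7% of all genes were below 0. METTL14, at 0.02, had an interval that holds 0.

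**Figure D2:**
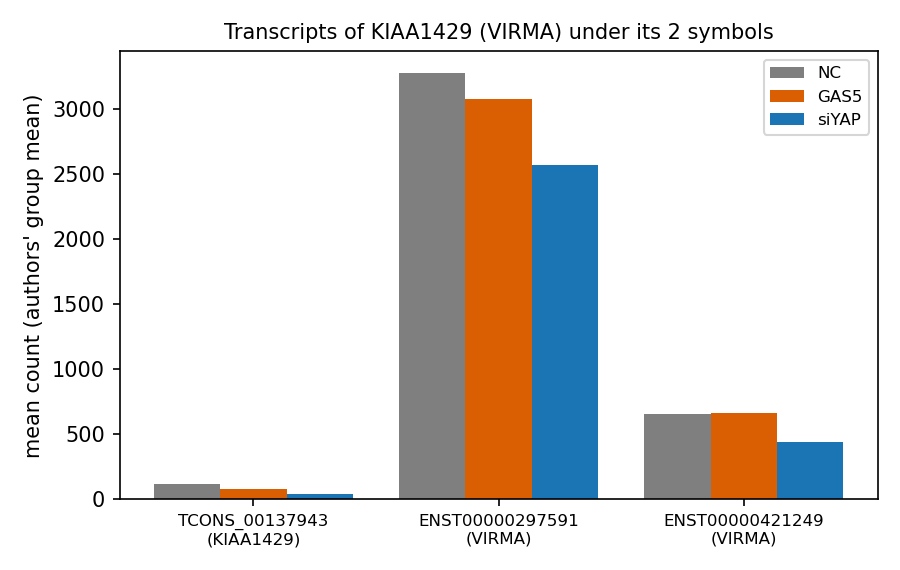
Bars give the mean count (y axis, linear from 0) of each listed transcript of KIAA1429 (VIRMA) in NC (grey), GAS5 (orange) and siYAP (blue). The transcript under KIAA1429 has 119.0, 79.9 and 42.7 counts, and the VIRMA transcripts hold the remainder, with siYAP lowest for each of the 3.

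FTO, the eraser among the 10 (chromosome 16, 53701692 to 54158512, plus strand), was the 1 member above 0 in siYAP. Its mean count was 1733.5 in NC, 1511.0 with GAS5 and 1840.5 with siYAP, so its order of groups was the reverse of that of METTL3, WTAP and RBM15. The log2 fold change was 0.17 in siYAP (0.10 to 0.24) and -0.08 in GAS5 (-0.15 to -0.01), and GAS5 was lower than siYAP with a log2 value of -0.27 (-0.34 to -0.20). In siYAP 70.2% of kept genes had a lower value, so the shift was not large beside other genes. ALKBH5, the other m6A demethylase, named here after its values were seen, had 4200.0 mean counts in NC, against 3857.0 in GAS5 and 3438.5 in siYAP. ALKBH5 had a log2 fold change of 0.00 in GAS5 (-0.05 to 0.04) and -0.20 in siYAP (-0.25 to -0.16), so the demethylases were on opposite sides of NC in siYAP.

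Most of the FTO count was in transcripts whose annotated reading frame is short or, as in FTO-201, incomplete. The 5 annotated transcripts with a reading frame of at least 400 codons held 606.3 mean counts in NC, 526.3 with GAS5 and 638.0 with siYAP, which was 35.0%, 34.8% and 34.7% of the gene. The 8 transcripts with a shorter frame held 65.0%, 64.9% and 65.0%, so the makeup by this measure was nearly the same in each group. Their log2 fold changes were alike as well, at 0.16 for the long and 0.17 for the short frames in siYAP. FTO-217 (ENST00000637001, 481 codons) was the highest FTO transcript by FPKM in NC, with 531.1 mean counts there, 466.1 in GAS5 and 601.5 in siYAP. FTO-206 (ENST00000471389), the 505-codon principal isoform in GENCODE, had only 24.5, 35.8 and 13.1. FTO-201 (ENST00000268349), named after its values were seen and annotated as an incomplete frame of 129 codons, had the most counts, with 548.6, 525.3 and 702.7. FTO-201 held 31.6% of the gene count in NC and 38.2% in siYAP. FTO-204 (ENST00000463855), also short and also named after its values were seen, held 11.5% in NC and 7.01% in siYAP. The pooled shares thus hide opposite moves within the short class. How estimated counts divide between isoforms depends on the authors' counting tool, which is not given in the sources used here.

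Of the IGF2BP readers, IGF2BP2 and IGF2BP3 were below NC in both groups, at -0.29 and -0.19 in GAS5 and at -0.22 and -0.20 in siYAP. IGF2BP2 (chromosome 3, 185643739 to 185825056, minus strand) had 4975.0 mean counts in NC, against 3738.5 in GAS5 and 4026.0 in siYAP. IGF2BP2 had a log2 fold change of -0.29 in GAS5 (-0.34 to -0.25) and -0.22 in siYAP (-0.26 to -0.18). IGF2BP3 (chromosome 7, 23310209 to 23470467, minus strand) had 2177.0, 1764.0 and 1787.5, with log2 fold changes of -0.19 (-0.25 to -0.12) and -0.20 (-0.26 to -0.14). NC was thus the high group for both, and the treatments differed by -0.09 for IGF2BP2 and by less than 0.01 for IGF2BP3. Among all kept genes, 13.7% had a lower value than IGF2BP2 in GAS5 and 25.3% in siYAP. MALSU1, which shares 1521 exonic bases with IGF2BP3 on the other strand, had log2 fold changes of 0.18 in GAS5 and 0.11 in siYAP. The part of the overlap in the IGF2BP3 value was not tested. Genes on the other strand also share exonic bases with RBM15 (175), FTO (180) and IGF2BP1 (37 and 76).

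IGF2BP1 (chromosome 17, 48997412 to 49055650, plus strand) was close to absent, with 49.0 mean counts in NC, 38.0 with GAS5 and 45.5 with siYAP and at most 0.295 FPKM. Its log2 fold changes were -0.24 in GAS5 (-0.68 to 0.18) and -0.02 in siYAP (-0.43 to 0.39). Both intervals hold 0, so counting error alone covers these differences, and the spread between libraries is unknown. By the ratio of summed FPKM the signs turned, to 0.22 in GAS5 and 0.06 in siYAP. Its principal transcript IGF2BP1-201 (ENST00000290341) was listed at 0 in all 3 groups. TCONS_00058483, assembled from the reads, held 37.5, 33.1 and 26.3 of the counts.

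**Figure D3:**
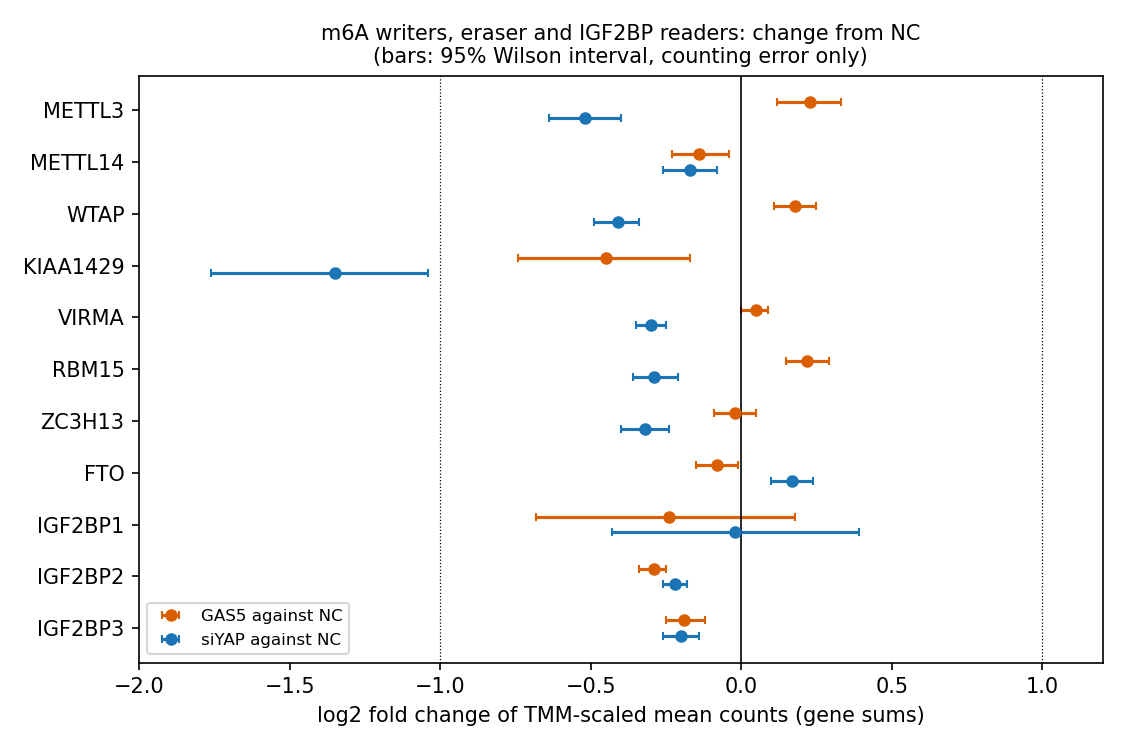
Points give the log2 fold change of each gene against NC (x axis) for GAS5 (orange) and siYAP (blue), bars the 95% Wilson interval for counting error, and dotted lines a fold change of 2. The siYAP points of METTL3, WTAP, RBM15, ZC3H13 and VIRMA lie between -0.52 and -0.29, FTO lies at 0.17, and only KIAA1429 passes the dotted line.

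Isoforms of the 10 genes were followed by transcript, to see whether gene sums hid changes of composition. Of the 50 transcripts, 40 are Ensembl transcripts, 10 are assembled ones, 8 were listed at 0 in all groups, and 37 had at least 10 mean counts in 1 or more groups. Of the 32 kept in the GAS5 comparison, 3 were at a fold change of at least 2, against 20.1% of all transcripts. All 3 were lower, and 9.48% of all transcripts were lower by that fold. Of the 35 kept in the siYAP comparison, 3 were, against 20.8%. Of these, 1 was higher and 2 were lower, and of all transcripts 9.41% were higher and 11.4% lower by that fold. With at least 50 mean counts in a group, these were IGF2BP2-204 and an assembled IGF2BP3 transcript in GAS5 and the KIAA1429 transcript in siYAP.

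IGF2BP2-204 (ENST00000457616) had 212.4 mean counts in NC, against 87.3 in GAS5 and 122.2 in siYAP, a log2 fold change of -1.16 in GAS5 (-1.42 to -0.92) and -0.67 in siYAP (-0.91 to -0.46). It held 4.27% of the IGF2BP2 count in NC and 2.33% in GAS5. The assembled IGF2BP3 transcript TCONS_00130420 had 74.9, 11.9 and 52.9, with log2 fold changes of -2.37 in GAS5 (-3.15 to -1.92) and -0.38 in siYAP (-0.74 to -0.03). IGF2BP3-201 (ENST00000258729), the full-length form, held 96.4% of the IGF2BP3 count in NC, with 2097.7 mean counts there, 1742.5 in GAS5 and 1710.0 in siYAP. The other transcripts past a fold of 2 had under 50 mean counts in each group. They were FTO-214 (32.8, 12.5 and 18.8) in GAS5, and FTO-222 (17.9, 11.9 and 4.5) and IGF2BP3-218 (4.4, 9.6 and 24.6) in siYAP.

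The 129-base exon of IGF2BP2 printed above was present in 3 of the 4 listed transcripts. They held 3139.2 mean counts in NC, 2350.4 with GAS5 and 2395.7 with siYAP, or 63.1%, 62.9% and 59.5% of the gene. The form without it, IGF2BP2-201 (ENST00000346192), held 1835.8, 1388.1 and 1630.3 mean counts and was the highest IGF2BP2 transcript by FPKM in NC. In siYAP the log2 fold change was -0.30 (-0.36 to -0.25) with the exon and -0.09 (-0.15 to -0.02) without it. In GAS5 the values were -0.30 and -0.28. Pooled, the forms that keep the exon had the higher count in every group, and in siYAP the lower fold change against NC. These pooled values use the scaling of the gene sums. Values by transcript use the scaling of the transcript counts, so those of IGF2BP2-201 differ slightly between the scalings. On the transcript scaling the forms with the exon were not alike in siYAP, at -0.32 for IGF2BP2-202 and -0.67 for IGF2BP2-204. IGF2BP2-203, which also keeps the exon, was at -0.09 (-0.19 to 0.00), close to IGF2BP2-201 without it at -0.06 (-0.12 to 0.01).

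The WTAP transcripts with the long frame (396 codons) and those with a short frame, of 151 or 170 codons, had near-equal fold changes. The short form printed above is the 151-codon frame of WTAP-201. The long frame held 46.9% of the WTAP count in NC, against 47.4% in GAS5 and 46.8% in siYAP. Log2 fold changes were 0.20 for the long and 0.17 for the pooled short frames in GAS5, and -0.41 and -0.40 in siYAP. WTAP-201 (ENST00000337387) was the highest WTAP transcript by FPKM in NC, with 806.6 mean counts there, 822.0 in GAS5 and 573.6 in siYAP. On the transcript scaling its log2 fold changes were 0.14 in GAS5 and -0.38 in siYAP.

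RBM15 and ZC3H13 each had a transcript that went against the gene sum in siYAP. RBM15-203 (ENST00000602849), which held 74.2% of the RBM15 count in NC, had 1149.9 mean counts in NC, 1260.3 with GAS5 and 811.4 with siYAP. RBM15-204 (ENST00000617047) had 132.4, 189.6 and 187.1, higher in both treatments, with a log2 fold change of 0.61 (0.39 to 0.84) in siYAP. For ZC3H13 the assembled TCONS_00037527 led with 737.4, 772.6 and 530.2. ZC3H13-202 (ENST00000282007), the principal isoform, had 446.4, 314.9 and 251.2, and ZC3H13-201 (ENST00000242848) had 389.8, 334.5 and 401.9. For ZC3H13-201 the log2 fold change in siYAP was 0.16 (0.02 to 0.30). ZC3H13-202 and ZC3H13-201 were named after their values were seen, as was RBM15-204.

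The share of a gene's count that moved between its transcripts was also set beside that of all genes with at least 500 mean counts in both groups. In GAS5 the median was 3.32% over the 8 members that qualify and 4.26% over 6991 genes. In siYAP it was 6.63% over 7 members and 4.0% over 6945 genes, with FTO at 9.69%, ZC3H13 at 9.27% and RBM15 at 7.2%. METTL3, the lowest in GAS5 at 0.381%, fell out in siYAP with 487.5 mean counts, so the member medians cover different sets. In siYAP, METTL14 at 6.63% and IGF2BP2 at 4.83% were also above the median of all genes. Only WTAP at 0.733% and IGF2BP3 at 1.17% were below it.

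**Figure D4:**
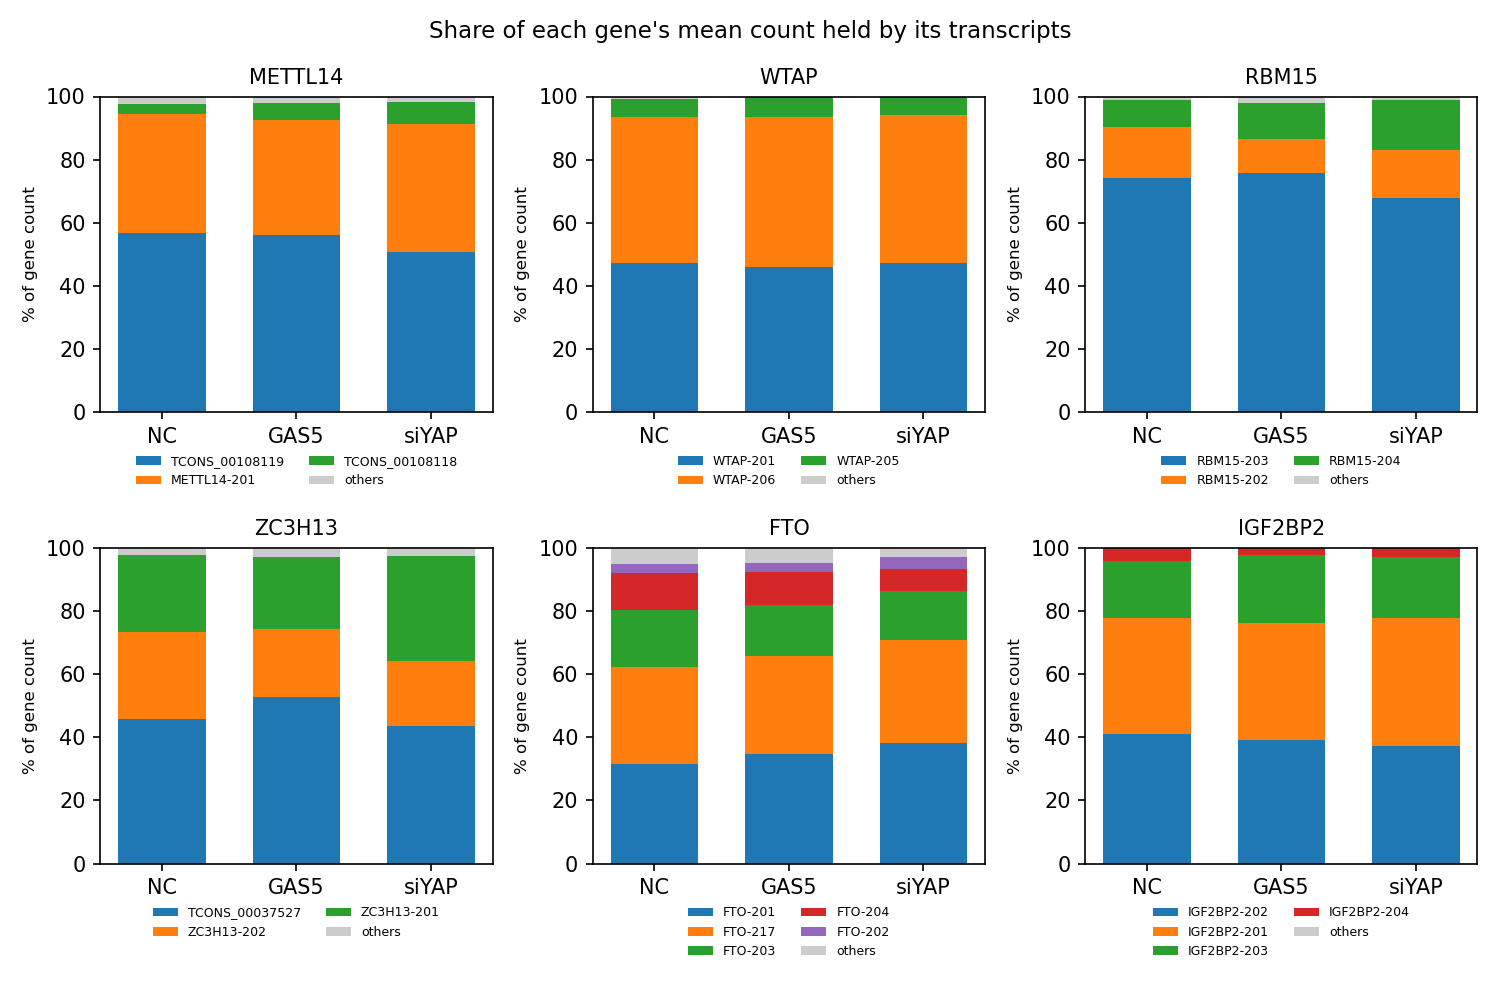
Stacked bars give the percentage of each gene's mean count (y axis, 0 to 100) held by its main transcripts in NC, GAS5 and siYAP, for the 6 genes with several transcripts of some size, with the remainder in grey. The WTAP bars are nearly the same in all groups, RBM15-203 takes 74.2% in NC and 67.8% in siYAP, and ZC3H13-201 takes 24.2% in NC and 33.1% in siYAP.

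Promoters were searched for the core motif of TEAD factors, the DNA-binding partners of YAP, written CATTCC, or GGAATG on the other strand. A motif of interferon response factors, GAAA repeated on the same strand after a gap of 2 bases, was searched in the same way on both strands. RefSeq promoters (GRCh38.p14, 250 bases before to 50 after a start) were matched for 8 of the 10 genes, with 10 promoters in all. The motif was in 1 of these 10, and in 14.0% of 35116 promoters of the same length. The interferon motif was in none of the 10 and in 3.57% of all. The 1 match of CATTCC was at an alternative start of IGF2BP2, the only promoter shown for that reason, with the motif in capitals beginning 111 bases before the start (chr3:185821093-185821392, minus strand).
IGF2BP2 alternative promoter: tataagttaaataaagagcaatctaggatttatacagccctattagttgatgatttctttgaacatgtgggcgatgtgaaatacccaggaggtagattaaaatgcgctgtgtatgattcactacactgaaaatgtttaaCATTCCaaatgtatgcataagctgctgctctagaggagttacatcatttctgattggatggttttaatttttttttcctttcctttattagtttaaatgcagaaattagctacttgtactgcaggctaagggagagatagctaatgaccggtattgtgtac
IGF2BP2-203 (ENST00000421047) is the listed transcript that begins in this window. It had 888.8 mean counts in NC, against 804.6 in GAS5 and 769.1 in siYAP, with a log2 fold change of -0.03 in GAS5 (-0.13 to 0.06) and -0.09 in siYAP (-0.19 to 0.00). A match of letters does not show that a factor binds there.

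The other genes of the m6A pathway were taken from a list of 19. The list held the remaining writers, the eraser ALKBH5, readers of the YTH and HNRNP families, and FMR1, ELAVL1 and PRRC2A. All 19 were kept and none was at a fold change of 1.5 or more in either comparison. In siYAP 12 were below 0 and 7 above, with a median of -0.18 and values from -0.43 to 0.18. In GAS5 13 were above 0 and 6 below, with a median of 0.05 and values from -0.26 to 0.23. The most abundant were HNRNPC, with 24153.5 mean counts in NC and log2 fold changes of 0.04 in GAS5 and 0.05 in siYAP, and HNRNPA2B1, with 21586.5 and values of -0.26 and -0.43. The 6 writers, with the split gene joined, had a median of -0.32 in siYAP and 0.11 in GAS5. No test of the difference between the lists was made.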

How the data were processed

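Strand-specific libraries of total RNA from HCT116 cells were sequenced by the authors in 3 groups of 2. The deposited estimated counts per mRNA transcript are group means made by the authors, with no further normalization. The deposited FPKM are group means made by the authors, scaled by transcript length and library size, with 0 written as 0.001. TopHat2 2.1.1 is named in the submitters' processing notes. The counting tool and genome build are not given in the sources used here. Columns with the authors' log2 fold changes, p-values and FDR were not used.

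The tables were joined by transcript identifier and upper-case symbols were used, and counts and FPKM were summed by symbol. The 339 transcripts without a symbol, with 0.195% to 0.224% of counts, entered no gene. Transcript types and coordinates came from GENCODE 29 (GRCh38).

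Scaling used TMM from edgeR 4.0.16 on each pair of means (R 4.3.3), after filterByExpr with a minimum count of 10, and a prior count of 2 entered each log2 ratio. Gene sums and transcripts were scaled separately, and pooled isoform classes took the scaling of the gene sums. The edgeR quasi-likelihood test planned for libraries could not be run on means. DESeq2 1.42.0 gave size factors only. Wilson intervals (95%) came from statsmodels 0.14.6 in Python 3.11.15 and cover counting error. Scripts were tested on simulated data. Total mean counts were 27206123 in NC, against 25521577 in GAS5 and 26298036 in siYAP.

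The members and all lists were chosen with earlier results of these data known. Named transcripts were each member's highest by NC FPKM and those with at least 50 mean counts in a group and a fold change of at least 2. In the other lists, genes at a fold change of at least 1.5 and the 2 with the highest NC counts were named. Alternatives were DESeq2 size factors, total counts, no filter, a prior count of 0.5, FPKM ratios (pseudocount 0.1), Ensembl transcripts only, a minimum of 10 in all groups and, added after the data were seen, joining KIAA1429 and VIRMA.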

Additional observations from a re-analysis of the deposited data

How the results depend on the processing

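No paired analysis was possible because each group is given as 1 mean, and for the same reason leaving out each replicate and the replicate block were not run. Of 118 log2 fold changes of the members under alternatives, 114 stayed inside the counting interval of the reported value. The exceptions, all 4 of which are given here, were IGF2BP1 in GAS5 at 0.22 by the FPKM ratio, ZC3H13 in GAS5 at -0.23 with Ensembl transcripts only, and KIAA1429 at 0.03 in GAS5 and -0.32 in siYAP when joined with VIRMA. Signs changed in 3 of the 118, which were IGF2BP1 in GAS5, IGF2BP1 in siYAP at 0.06 by the FPKM ratio, and the joined KIAA1429 in GAS5. Between 299 and 574 genes were at a fold change of at least 2 in GAS5 (413 reported) under the other settings, but 932 without the low-count filter. In siYAP the reported 301 became 709 without the filter and 519 with Ensembl transcripts only, where the gene sums leave out the assembled transcripts. The 1 member at that fold in siYAP became 0 with Ensembl transcripts only, since KIAA1429 has no Ensembl transcript, and 0 when KIAA1429 and VIRMA were joined. Of the member transcripts, 3 in each comparison were at that fold, against 9 in GAS5 and 6 in siYAP without the filter, which adds transcripts of low counts, and 1 in siYAP where all 3 groups had to reach 10 mean counts, which removes them. The median of all genes moved to -0.03 in GAS5 and -0.04 in siYAP at most. The spread between libraries is unknown, so intervals are lower limits of the error.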

Other observations

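The supply of S-adenosylmethionine, the methyl donor of the writer complex, was described by a list of 7 genes, all kept and none at a fold change of 1.5 or more. Their median log2 fold change was -0.12 in GAS5 and -0.02 in siYAP, with 5 of the 7 below 0 in each. AHCY, which clears the product of methylation, had 19212.5 mean counts in NC and log2 fold changes of 0.02 in GAS5 and 0.13 in siYAP. SHMT2, a serine hydroxymethyltransferase of the mitochondria, had 14449.5 in NC and values of -0.25 and 0.28.

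Messages known to be bound by IGF2BP proteins were described by a list of 20 genes, of which 18 were kept and none was at a fold change of 1.5 or more against NC. Their median was -0.07 in GAS5, where 11 of 18 were below 0, and 0.10 in siYAP, where 7 were. HMGA1, a chromatin protein, had 77315.0 mean counts in NC and log2 fold changes of 0.04 in GAS5 and 0.32 in siYAP. ACTB, cytoplasmic actin, had 76099.5 and values of 0.53 and 0.14. MYC, named after its values were seen, had 10707.0 mean counts in NC, against 9245.0 in GAS5 and 12666.5 in siYAP, with log2 fold changes of -0.09 and 0.33.

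Some transcripts of the m6A genes were listed above 10 mean counts in some groups and at 0 in others. RBM15-205 (ENST00000618772) had 12.3 in GAS5 and 0 in NC and siYAP. WTAP-202 (ENST00000358372) had 12.5 in NC and 0 in the treatment groups. The assembled IGF2BP1 transcript TCONS_00058484 had 10.4 in NC, 17.2 in siYAP and 0 in GAS5. RBM15-205 and WTAP-202 failed the filter on low counts in both comparisons with NC, and TCONS_00058484 failed it in the GAS5 comparison. How many of all listed transcripts have this pattern was not counted, so it is not shown to be particular to these genes.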
